A study of Mus musculus with 8 samples.

Results

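The 10 genes described here encode the core of the Notch system at the cell surface: the receptors *Notch1*, *Notch2*, *Notch3* and *Notch4*, the ligands *Dll1*, *Dll4*, *Jag1* and *Jag2*, the ligand-activating E3 ubiquitin ligase *Mib1* and the receptor-modifying glycosyltransferase *Lfng*. They were taken by gene symbol from a table of 53465 genes, and all 10 were found and passed the filter on low counts that left 14451 genes for testing. RNA-seq of polyadenylated RNA was made from mouse heart ventricles at embryonic day 9.5 (E9.5). There were 4 samples labelled WT and 4 samples of the genotype Nrg-1flox;Tie2-Cre, called mutant here, in which a floxed *Nrg1* allele was combined with a Cre driver line for endothelial cells. *Nrg1* encodes neuregulin-1, a growth factor that the endocardium sends to the myocardium. The comparison asks how loss of this signal from endothelial cells alters the expression of Notch receptors and ligands in the ventricle.

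In Notch signalling, a Delta or Jagged ligand on one cell binds a Notch receptor on its neighbour, the receptor is cut by ADAM proteases and then by gamma-secretase, and the freed intracellular domain enters the nucleus and acts with the DNA-binding protein Rbpj. Mib1 must ubiquitylate the ligand for it to activate the receptor, and Lfng adds sugars to the receptor that favour Delta over Jagged ligands. In the early ventricle, Dll4 and Notch1 are known to act in the endocardium during trabeculation, whereas Jag1, Jag2 and Mib1 are known from the myocardium, where they act on Notch1 in the endocardium during later chamber maturation.

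The Cre is driven by the promoter of *Tek* (*Tie2*), which is active in endothelial cells including the endocardium and also in blood cells, so *Nrg1* made by other cells was not targeted. The labels do not say which *Nrg1* or Cre alleles the WT embryos carried, nor whether a sample was 1 embryo or a pool, so the p-values measure the spread between these samples, which may be partly technical. Total counts ranged from 11852372 to 14360323 in WT and from 12430368 to 14223860 in the mutant. *Nrg1* itself, summed over the whole gene, had 156, 131, 121 and 173 counts in WT replicates 1 to 4 and 61, 59, 71 and 72 in mutant replicates 1 to 4, and its level fell to a fold of 0.477 (log2 fold change -1.07, standard error (SE) 0.14, edgeR adjusted p = 0.00268). Cardiomyocyte markers, with *Myh7* the most abundant, summed to 38399 to 40414 CPM (counts scaled to the normalized size of each library) in WT. In the mutant they summed to 35941 to 39662 CPM, with an overlap. Of the 12 markers, 0 passed the test and 2 had an unadjusted p under 0.05, where 3607 of all 14451 genes tested did. Markers of neural and paraxial mesoderm were near the floor, summing to at most 5.83 CPM. Some libraries and cell markers moved with genotype. Erythroid markers, with *Hbb-y* the most abundant, were higher in the mutant for 10 of 10 genes (median log2 fold change 2.44), and hemoglobin genes took 1.93% to 6.26% of mutant counts against 0.671% to 0.799% of WT counts. Mutant replicate 1 had the highest share, and it differed most from the other samples of its group over all genes. The log2 fold changes of the 10 genes are therefore given also without it.

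One of the 10 genes was called. *Jag1* fell in the mutant by 29.7%, and the other 9 genes did not pass the test at an adjusted p of 0.05. The 9 were 3 of the ligands (*Dll1*, *Dll4* and *Jag2*), the 4 receptors, *Mib1* and *Lfng*. Over all genes tested, 8.62% were called in either direction and 3.5% were called lower, so a count of 1 in 10 is close to the background. The median log2 fold change of the 10 genes was -0.04, and that of all genes tested was -0.0014. Likewise, *Jag1* alone had CPM ranges that did not overlap between the genotypes, where 19% of all genes tested had none. The genes thus stood out as a group neither in the number called nor in their median.

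**Figure D1:**
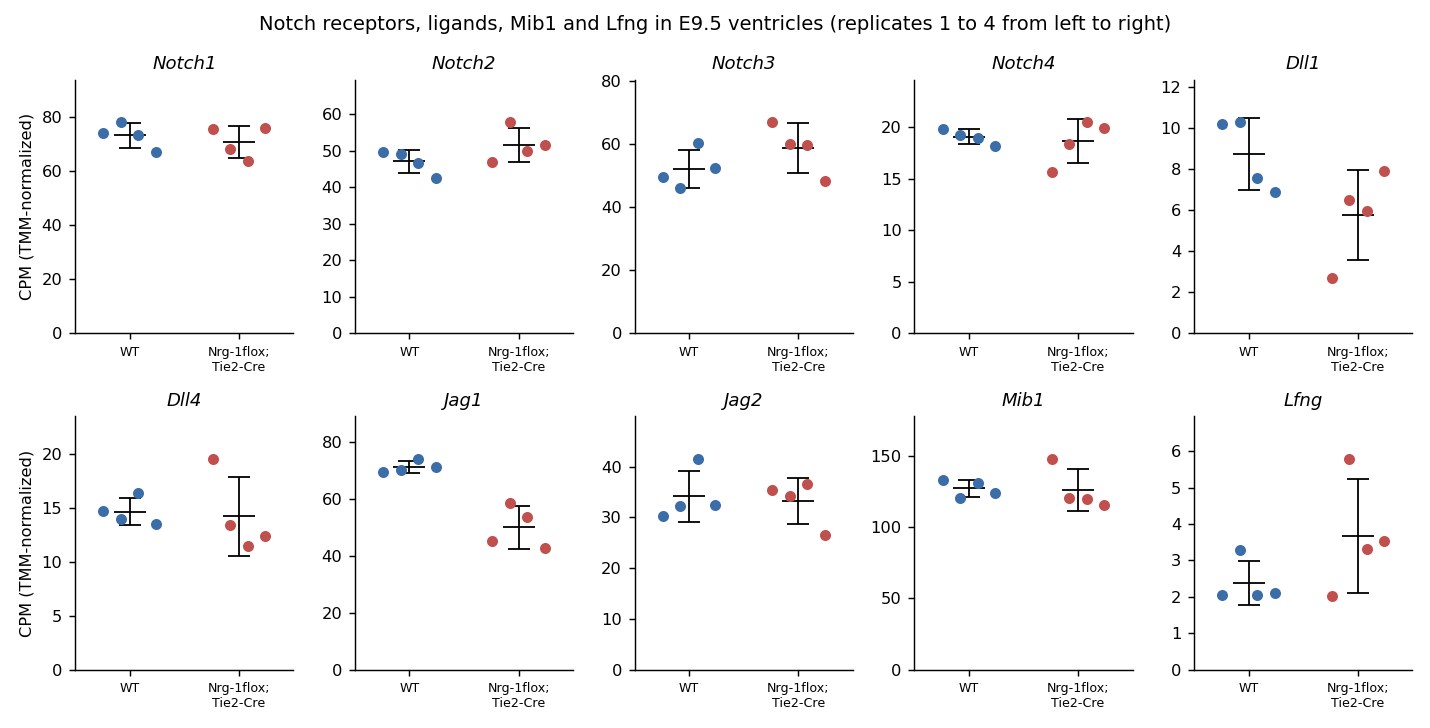
Level of each gene in TMM-normalized CPM (vertical axes, linear, each starting at 0) in the 4 WT samples (blue) and the 4 Nrg-1flox;Tie2-Cre samples (red), with replicates 1 to 4 from left to right and the mean and SD in black. In *Jag1* every red point lies under every blue point, while in *Dll4* and *Mib1* a single mutant sample, replicate 1, lies above the rest.

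None of the receptors was called. *Notch1* lies on the minus strand of chromosome 2 in the GRCm38 build (chr2:26457903-26516663, 34 exons in its longest coding transcript). Its CPM were 74.1, 78.1, 73.4 and 66.8 in WT replicates 1 to 4 and 75.5, 68.1, 63.5 and 75.7 in mutant replicates 1 to 4. The groups overlapped over most of their range, with means of 73.1 ± 4.68 (SD, n = 4) in WT and 70.7 ± 5.97 (SD, n = 4) in the mutant. The log2 fold change was -0.05 with a 95% interval from -0.22 to 0.12 (adjusted p = 0.740 in edgeR), and changes within that interval are not excluded.

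*Notch4*, the other receptor best known from endothelial cells (chr17:34564268-34588503, plus strand, 30 exons), was not called either. WT replicates 1 to 4 held 19.9, 19.3, 19.0 and 18.1 CPM, and mutant replicates 1 to 4 held 15.7, 18.4, 20.5 and 19.9 CPM. The WT samples were close together, with a coefficient of variation of 3.81%, less than the 6.24% that counting error alone would give at this depth. The mutant samples lay on both sides of them. The log2 fold change was -0.03 (95% interval -0.25 to 0.18, edgeR adjusted p = 0.867), and it was 0.04 without mutant replicate 1, so it has no settled sign.

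*Notch2* and *Notch3*, receptors with wider expression that includes smooth muscle and pericytes for *Notch3*, had positive log2 fold changes that did not pass. *Notch2* (chr3:98013527-98150361, plus strand) was at 49.8, 49.1, 46.8 and 42.7 CPM in WT replicates 1 to 4 and at 47.1, 57.9, 50.1 and 51.5 CPM in mutant replicates 1 to 4. The highest value was that of mutant replicate 2, replicates 3 and 4 were also above every WT sample, and replicate 1 lay within the WT range. Its log2 fold change of 0.13 did not pass (95% interval -0.04 to 0.31, edgeR adjusted p = 0.321). *Notch3* (chr17:32120820-32166852, minus strand) was at 49.4, 46.1, 60.2 and 52.5 CPM in WT and at 66.9, 59.9, 59.6 and 48.1 CPM in the mutant, in the same order of replicates. Its samples were more variable within each genotype than those of *Notch1* and *Notch2*, with coefficients of variation of 11.6% in WT and 13.3% in the mutant, where counting alone would give 3.78% and 3.63%. In the fit, the log2 fold change was 0.17 (95% interval -0.07 to 0.42, edgeR adjusted p = 0.368), and it was 0.11 without mutant replicate 1 (edgeR adjusted p = 0.511).

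Among the ligands, *Jag1* was the one that passed the test. *Jag1* lies on the minus strand (chr2:137081456-137116644, 26 exons, a coding sequence of 3654 bases). Its counts were 910, 982, 903 and 1056 in WT replicates 1 to 4 and 532, 812, 748 and 518 in mutant replicates 1 to 4. After normalization these were 69.5, 70.3, 74.2 and 71.4 CPM in WT and 45.1, 58.8, 53.8 and 42.7 CPM in the mutant. The 4 WT samples spread no more than counting error (coefficient of variation 2.87%, against 3.22% from counting alone), and the 4 mutant samples all lay under them but spread more widely (15.0% against 3.91%). The means were 71.4 ± 2.05 CPM (SD, n = 4) in WT and 50.1 ± 7.50 CPM (SD, n = 4) in the mutant. The log2 fold change was -0.51 (SE 0.097, 95% interval -0.72 to -0.29, adjusted p = 0.0124 by edgeR's quasi-likelihood test). It was called in all 8 fits that each left out 1 sample, with log2 fold changes from -0.59 to -0.44, and without mutant replicate 1 it was -0.46 (edgeR adjusted p = 0.00774).

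Cell markers moved along with *Jag1*. Beside the erythroid markers above, the 8 markers of outflow tract and second heart field, of which *Hand2* was the most abundant, summed to 387 to 436 CPM in WT and to 272 to 335 CPM in the mutant, and 4 of the 7 tested fell. Epicardial markers, with *Krt19* the most abundant, summed to 177 to 230 CPM in WT and to 270 to 469 CPM in the mutant, with 2 of 6 called higher. Of the smooth muscle and pericyte markers, led by *Acta2*, 1 of 6 was called higher and their sums overlapped. The part of these shifts in the *Jag1* result was not tested, except that with the erythroid marker mean as a covariate the *Jag1* log2 fold change was 0.06 (edgeR adjusted p = 0.941), in a fit that called 0 genes in all (1269 at an unadjusted p under 0.05). Since the erythroid markers do not overlap between the genotypes, blood content and genotype cannot be told apart there.

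*Jag2*, the second Jagged ligand (chr12:112907819-112929776, minus strand, 26 exons), did not follow *Jag1*. Its CPM were 30.3, 32.2, 41.6 and 32.4 in WT replicates 1 to 4 and 35.4, 34.2, 36.5 and 26.5 in mutant replicates 1 to 4. The highest value was in WT and the lowest in the mutant, but among the other 6 values every mutant sample was above every WT sample. In the fit, *Jag2* had a log2 fold change of -0.04 (95% interval -0.31 to 0.24, edgeR adjusted p = 0.884). The log2 level of *Jag1* minus that of *Jag2*, within each sample, lay between 0.83 and 1.19 in WT and between 0.35 and 0.78 in the mutant. These ranges did not overlap, and whether the responses of the 2 genes differ was not tested beyond them.

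Of the Delta ligands, *Dll4* (chr2:119325784-119335962, plus strand, 11 exons), the ligand of endothelial and endocardial Notch1, was at 14.7, 13.97, 16.4 and 13.5 CPM in WT replicates 1 to 4. In mutant replicates 1 to 4 it was at 19.6, 13.5, 11.4 and 12.4 CPM. Mutant replicate 1 was thus the highest of the 8 samples, and the other 3 mutant samples were the 3 lowest, replicate 2 by a small margin. The means of 14.6 ± 1.25 (SD, n = 4) and 14.2 ± 3.66 CPM (SD, n = 4) were close, and the mutant coefficient of variation of 25.7% was well above the 7.42% from counting. Its log2 fold change was -0.04 with all samples (95% interval -0.41 to 0.32, edgeR adjusted p = 0.903) and -0.23 without mutant replicate 1 (edgeR adjusted p = 0.149). *Dll4* was called in neither fit.

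*Dll1*, a Delta ligand best known from the paraxial mesoderm and the nervous system (chr17:15367354-15376872, minus strand), had low counts, from 92 to 144 in WT and from 32 to 96 in the mutant. Its CPM were 10.2, 10.3, 7.56 and 6.89 in WT replicates 1 to 4 and 2.71, 6.52, 5.97 and 7.91 in mutant replicates 1 to 4. Mutant replicate 1 was far below the rest, and mutant replicate 4 lay inside the WT range. Its log2 fold change was -0.59, larger in size than that of *Jag1*, but its 95% interval ran from -1.22 to 0.03 (edgeR adjusted p = 0.221). Without mutant replicate 1 it was -0.37 (edgeR adjusted p = 0.187). The 10 markers of neural tissue and paraxial mesoderm, which could carry *Dll1* into a dissected heart, summed to 4.19 to 5.83 CPM in WT and 2.32 to 4.53 CPM in the mutant. Of these, 8 were too low to test (1 had no count in any sample), 0 of the other 2 passed (0 also at an unadjusted p under 0.05), and their part in the *Dll1* values was not tested.

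**Figure D2:**
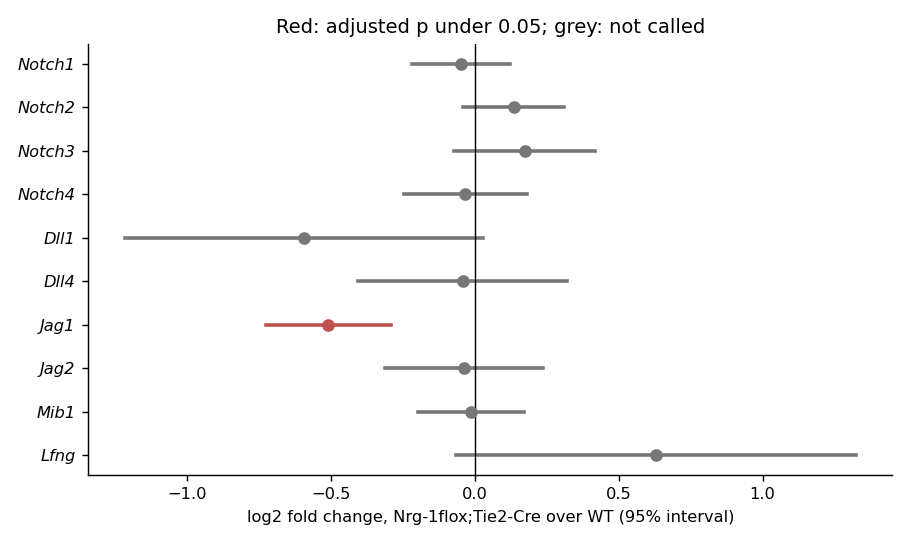
Log2 fold change of Nrg-1flox;Tie2-Cre over WT (horizontal axis) for each gene, with the 95% interval as a line, from edgeR's quasi-likelihood fit to 8 samples. The interval of *Jag1* (red, -0.72 to -0.29) lies wholly under 0, those of *Dll1* and *Lfng* are the widest, and the 9 intervals in grey include 0.

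The sequences just upstream of the ligand genes are shown because *Jag1*, which fell, and *Dll4*, which was not called, share a sequence there. The 6 letters CACGCG, a form bound by Hes and Hey repressors, which are themselves Notch targets, were searched on both strands in the 250 bases before the RefSeq start of each gene. They were present in 5 of 10 windows of the 9 genes that had a window, those of *Dll1*, *Dll4*, *Jag1*, *Lfng* and *Notch2*, and in 7.62% of all 32851 windows. The windows were not matched for base composition, and the difference in share was not tested. In *Jag1* the match on the gene's strand began 171 bases before the start and a second, on the opposite strand, 249 bases before it. In *Dll4* the match began 195 bases before the start. These distances count from the RefSeq start. The stretches below are limited to bases upstream of both the RefSeq and GENCODE starts, so the 124 bases next to the RefSeq start of *Jag1* are not shown. They are on the gene's strand, from RefSeq on GRCm38.p6, with matches in capitals (chr2:137116645-137116770 for *Jag1*, minus strand, and chr2:119325534-119325783 for *Dll4*, plus strand).
Jag1: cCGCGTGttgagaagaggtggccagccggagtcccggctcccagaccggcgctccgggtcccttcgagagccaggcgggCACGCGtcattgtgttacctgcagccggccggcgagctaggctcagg
Dll4: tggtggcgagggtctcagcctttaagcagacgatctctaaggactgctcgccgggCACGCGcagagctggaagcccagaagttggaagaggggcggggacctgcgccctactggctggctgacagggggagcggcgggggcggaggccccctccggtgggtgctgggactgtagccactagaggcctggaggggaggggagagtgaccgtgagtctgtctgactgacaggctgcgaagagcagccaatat
A match is only a run of letters, and no binding was measured.

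Relative to the length of the longest coding transcript, *Jag1* had the highest level of the 10 genes in WT. Its level was 12.7 ± 0.365 CPM per kb (SD, n = 4), and *Mib1* followed at 12.4 ± 0.573 CPM per kb (SD, n = 4), with overlapping ranges. Then came *Notch1* at 7.70 ± 0.494, *Jag2* at 6.68 ± 0.991 and *Notch3* at 6.49 ± 0.755 CPM per kb (SD, n = 4 each), whose ranges overlapped from each to the next, and which were below *Mib1* without overlap. *Notch2* at 4.48 ± 0.306 and *Dll4* at 3.91 ± 0.332 CPM per kb (SD, n = 4 each) overlapped, as did *Notch4* at 2.89 ± 0.110 and *Dll1* at 2.44 ± 0.497. *Lfng* was lowest at 1.03 ± 0.266 CPM per kb (SD, n = 4). In the mutant, *Jag1* was at 8.93 ± 1.34 CPM per kb (SD, n = 4), below *Mib1* at 12.3 ± 1.45. The order depends on the length used in 1 respect, since *Notch3* moves from the fifth to the third place with the length of all annotated exons.

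On this scale the 4 ligands summed to 25.8 ± 1.44 CPM per kb in WT (range 24.6 to 27.8) and to 20.8 ± 1.80 CPM per kb in the mutant (range 18.3 to 22.6, SD, n = 4 each). The ranges did not overlap. *Jag1* made up 47.5% to 51.7% of the ligand sum in WT and 38.3% to 46.4% in the mutant. The share of *Jag2* was 23.6% to 29.2% in WT and 28.3% to 33.3% in the mutant, with an overlap. The share of *Dll4* was 14.7% to 15.7% in WT and 24.9%, 15.9%, 14.2% and 18.1% in mutant replicates 1 to 4, so its highest value was again that of mutant replicate 1. The 4 receptors, in contrast, summed to 21.6 ± 0.902 CPM per kb in WT and 22.5 ± 0.650 in the mutant (SD, n = 4 each), and both their sum and the share of each receptor overlapped between the genotypes. These sums are over chosen genes and carry no test.

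**Figure D3:**
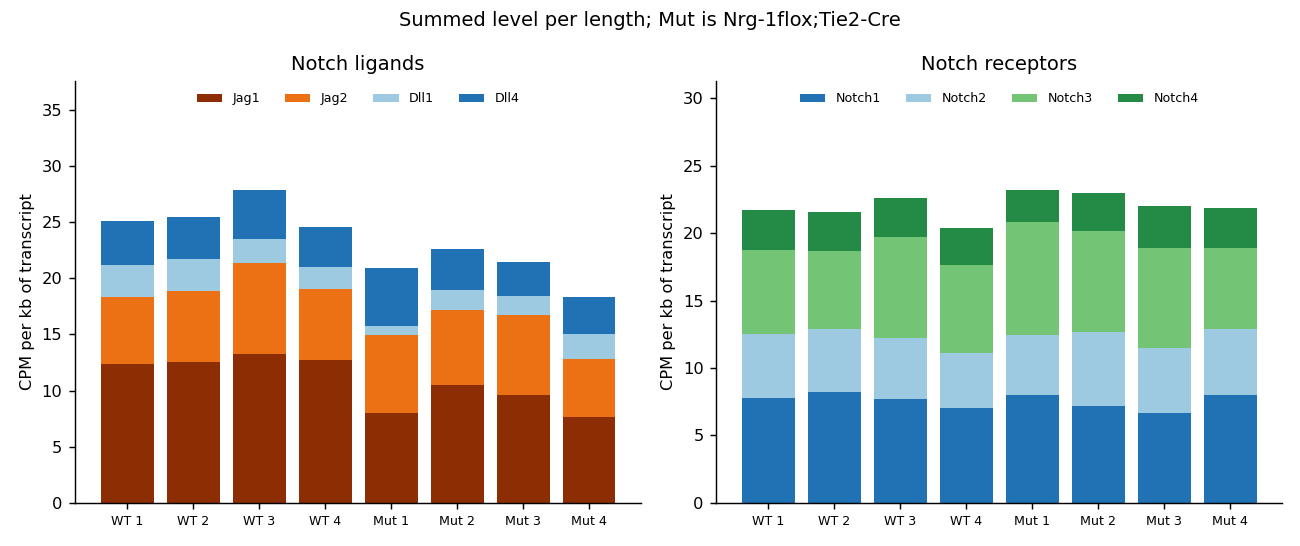
Summed level of the 4 ligands (left) and the 4 receptors (right) in CPM per kb of transcript (vertical axes, linear, starting at 0), stacked by gene, in WT replicates 1 to 4 and Nrg-1flox;Tie2-Cre replicates 1 to 4 (Mut). The *Jag1* block (dark brown) is shorter in every mutant sample, and the receptor bars span 20.4 to 23.2 CPM per kb in all samples.

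The endocardial side, *Dll4* and *Notch1*, was set against the Jagged ligands as a difference of mean log2 levels within each sample. This difference was -0.47, -0.52, -0.68 and -0.67 in WT replicates 1 to 4 and -0.05, -0.56, -0.71 and -0.13 in mutant replicates 1 to 4. Mutant replicates 1 and 4 were above all WT samples, and replicates 2 and 3 were within or below the WT range. The means were -0.59 ± 0.11 in WT and -0.36 ± 0.32 in the mutant (SD, n = 4 each), a shift of 0.22 that is smaller than the mutant spread. The shift was 0.12 without mutant replicate 1. It mostly restates the lower *Jag1* (log2 fold change -0.51). The log2 fold changes of *Dll4* (-0.04), *Notch1* (-0.05) and *Jag2* (-0.04) were all near 0, so *Dll4* and *Notch1* did not rise.

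Because this is bulk tissue, fewer endothelial cells and less RNA per endothelial cell cannot be told apart. Of 12 endothelial and endocardial markers, 1 fell and 0 rose, and the median log2 fold change was -0.09. An unadjusted p under 0.05 was found for 5 of the 12, and for 3607 of all 14451 genes tested. The one that fell, *Tek*, encodes the angiopoietin receptor whose promoter drives the Cre. It was at 102 to 117 CPM in WT and at 75.5 to 93.0 CPM in the mutant (log2 fold change -0.34, edgeR adjusted p = 0.0310), a call kept in 2 of 8 fits with 1 sample left out and lost with the replicate block and with either marker covariate. The 12 markers summed to 911 to 996 CPM in WT and 800 to 880 CPM in the mutant, without overlap. Of 6 arterial markers, *Sox17*, a transcription factor of arterial endothelium, rose from 3.82 to 4.77 CPM in WT to 7.53 to 11.7 CPM in the mutant (log2 fold change 1.03, edgeR adjusted p = 0.00743), a call kept in 8 of 8 fits with 1 sample left out and lost with either marker covariate. The other 5 did not pass, 4 of the 6 had negative log2 fold changes, and the median over the 6 was -0.12. The fit with the endothelial covariate called 9 genes in all and that with the erythroid covariate 0, so a call lost there says little about *Tek* or *Sox17* in particular.

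Measured against the mean log2 level of these 12 endothelial markers in the same sample, the values of *Notch1* and *Notch4* overlapped between the genotypes, and those of *Dll4* overlapped through mutant replicate 1. *Notch1* stood at 0.68 ± 0.075 above the markers in WT and 0.74 ± 0.13 in the mutant (SD, n = 4 each, log2 scale). *Notch4* stood at -1.25 ± 0.018 in WT and -1.18 ± 0.21 in the mutant, and *Dll4* at -1.63 ± 0.12 and -1.58 ± 0.33 (SD, n = 4 each, log2 scale). In mutant replicates 1 to 4 the *Dll4* values were -1.09, -1.73, -1.77 and -1.74, against -1.70 to -1.46 in WT. Without replicate 1 the mutant mean of *Dll4* was -1.75 ± 0.021 (SD, n = 3), all 3 samples lay below every WT sample, and the difference from WT turned from 0.04 to -0.12. *Jag1*, in contrast, stood at 0.56 to 0.72 in WT and at 0.03 to 0.45 in the mutant, without overlap, a mean difference of -0.41. With the marker mean as a covariate in the fit across all genes, the log2 fold change of *Jag1* was -0.45 and it was no longer called (edgeR adjusted p = 0.262). In that fit 9 genes in all were called and *Nrg1* was lost as well. Of the mutant samples, only replicate 2 had a marker mean inside the WT range, so the covariate and the genotype are nearly the same split.

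*Mib1* encodes the ligase that acts on all 4 ligands (chr18:10725548-10818704, plus strand, 21 exons) and was not called. WT replicates 1 to 4 held 133.0, 120.6, 131.2 and 123.9 CPM, and mutant replicates 1 to 4 held 148.0, 120.4, 120.0 and 115.6 CPM. Mutant replicate 1 was above all other samples, and the other 3 mutant samples lay just below the WT range. In the fit, *Mib1* had a log2 fold change of -0.01 (95% interval -0.20 to 0.17, edgeR adjusted p = 0.941), and it was -0.10 without mutant replicate 1 (edgeR adjusted p = 0.200).

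*Lfng*, the fringe glycosyltransferase, had low counts, with 25 to 46 counts in WT and 24 to 80 in the mutant. It was at 2.06, 3.30, 2.05 and 2.10 CPM in WT replicates 1 to 4 and at 2.03, 5.79, 3.31 and 3.54 CPM in mutant replicates 1 to 4. The 3 mutant samples other than replicate 1 were above every WT sample, though replicate 3 only barely exceeded WT replicate 2. *Lfng* had a log2 fold change of 0.63 with a 95% interval from -0.07 to 1.32 (edgeR adjusted p = 0.246), one of 0.82 without mutant replicate 1 (edgeR adjusted p = 0.0570) and one of 0.33 without mutant replicate 2, the highest sample (edgeR adjusted p = 0.505). Counting error alone would give coefficients of variation of 17.6% in WT and 14.4% in the mutant, against the measured 25.8% and 42.6%.

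The *Lfng* upstream sequence is shown because it was the one member window that held the longer Rbpj motif. The 8 letters CGTGGGAA, found on either strand in 0.636% of all windows, began 110 bases before the *Lfng* start. The shorter core TGGGAA, which is part of it, was in 21.6% of all windows, and in *Lfng* also lay on the opposite strand 135 bases before the start. The letters CACGTG, an E-box that Hes and Hey proteins can bind (6.02% of windows), began 112 bases before the start and overlapped the Rbpj motif, and CACGCG lay on the opposite strand at 55 bases. None of the other member windows held CGTGGGAA, TGGGAA or CACGTG. The stretch is from the gene's plus strand (RefSeq on GRCm38.p6, chr5:140607091-140607319), with matches in capitals. It leaves out the 21 bases next to the RefSeq start, from which the distances are counted.
Lfng: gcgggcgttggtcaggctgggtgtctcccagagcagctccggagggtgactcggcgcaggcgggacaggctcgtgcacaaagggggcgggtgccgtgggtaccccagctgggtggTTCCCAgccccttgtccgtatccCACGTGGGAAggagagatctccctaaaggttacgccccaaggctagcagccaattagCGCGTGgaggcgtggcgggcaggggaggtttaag
*Lfng* itself (chr5:140607320-140615545) has 8 exons.

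Of 44 other Notch pathway genes in 5 lists, 39 were tested, 1 rose, 1 fell and 37 did not pass. The median log2 fold change of the 39 was -0.01. Of them, 6 had an unadjusted p under 0.05, where 3607 of all 14451 genes tested did. The 2 called genes make 5.13% of the 39, where 8.62% of all genes tested were called. Without mutant replicate 1 the counts were 7 of 39 (17.9%) and 2523 of 14630 genes (17.2%). The gene that fell was *Psen2*, a catalytic subunit of gamma-secretase. It was at 13.3 to 15.5 CPM in WT and at 9.13 to 11.04 CPM in the mutant without overlap (log2 fold change -0.49, SE 0.10, edgeR adjusted p = 0.0195). The gene that rose was *Dtx3*, one of the Deltex E3 ligases linked to Notch receptor turnover. It was at 46.7 to 58.4 CPM in WT and at 63.4 to 69.6 CPM in the mutant (log2 fold change 0.38, SE 0.076, edgeR adjusted p = 0.0152). *Psen2* kept its call in 4 of 8 fits with 1 sample left out and *Dtx3* in 5 of 8, and both lost it with the replicate block and with either marker covariate. The endothelial covariate left 9 calls over all genes and the erythroid covariate 0, so those losses are not particular to these genes. By list, 1 of 11 receptor processing genes, 1 of 7 receptor turnover genes, 0 of 6 other ligand-side genes, 0 of 9 nuclear complex genes and 0 of 6 target genes were called. In the last 3 lists, 2, 0 and 1 genes had an unadjusted p under 0.05.

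Neither *Rbpj* nor any of the 6 target genes tested passed. *Rbpj*, the DNA-binding partner of the Notch intracellular domain, was at 45.9 to 54.1 CPM in WT and 46.6 to 64.9 CPM in the mutant (log2 fold change 0.05, edgeR adjusted p = 0.813). *Hes1*, a target gene that encodes a repressor, had a log2 fold change of -0.17 (95% interval -0.36 to 0.03, edgeR adjusted p = 0.270), and *Hey1*, a related repressor, one of 0.0014 (95% interval -0.36 to 0.36, edgeR adjusted p = 0.997). *Nrarp*, a feedback inhibitor of Notch, was at 11.4, 12.2, 13.0 and 11.2 CPM in WT replicates 1 to 4 and at 7.72, 11.4, 11.1 and 7.50 CPM in mutant replicates 1 to 4. Replicates 1 and 4 were the low ones among the mutants (log2 fold change -0.34, edgeR adjusted p = 0.214). *Hey2*, which is also made by compact myocardium, was the one of these whose groups did not overlap. It was at 68.1 to 74.7 CPM in WT and at 76.2 to 108 CPM in the mutant, with the highest value in replicate 1, and it did not pass either (log2 fold change 0.28, edgeR adjusted p = 0.126).

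**Figure D4:**
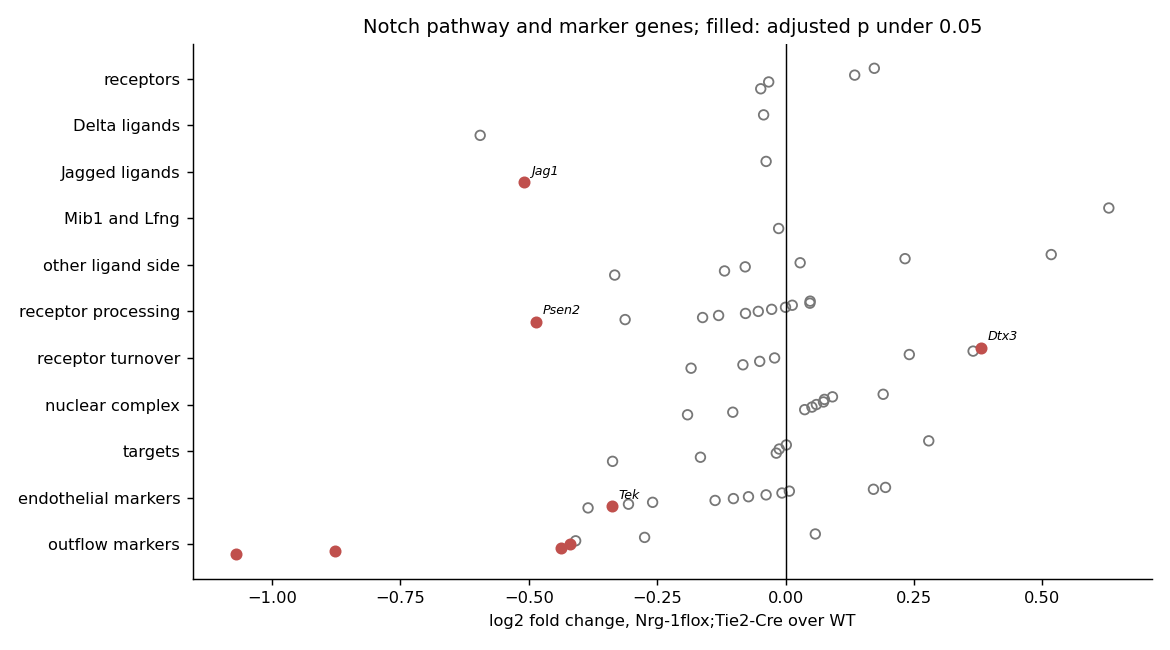
Log2 fold change of Nrg-1flox;Tie2-Cre over WT (horizontal axis) for each tested gene, by list (rows). Filled red points have an adjusted p under 0.05, open points do not, and the vertical offset within a row only separates points. Among Notch genes the red points are *Jag1*, *Psen2* and *Dtx3*, and 4 outflow markers are red at the bottom.

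The genes whose levels followed these members most closely over the 8 samples, among 11092 genes with a mean of at least 5 CPM, differed between the ligands. For *Jag1* they were *Zfp275* (Pearson r = 0.990), *Ap1g1* (0.989), *Pard3* (0.986), *Hmgcs1* (0.983) and *Kitl* (0.982), each of which was lower in all mutant samples than in all WT samples. For *Dll4* they were *Lmbrd1* (r = 0.986), *Bmpr1a* (0.982), *Nedd9* (0.972), *Nexn* (0.969) and *Gde1* (0.969), each of which was highest in mutant replicate 1. For *Notch1* they were *Rnft1* (r = 0.939), *Acad12* (0.915), *Fam214a* (0.912), *Robo2* (0.903) and *Nnt* (0.898). These values describe 8 samples that share a genotype split and, for *Dll4*, 1 library that stands apart.

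Leaving out 1 sample at a time showed which members depend on which library. *Jag1* stayed negative in all 8 such fits, as did *Dll1*, and *Notch2*, *Notch3* and *Lfng* stayed positive. *Notch4*, *Dll4*, *Jag2* and *Mib1* took both signs. Without mutant replicate 1 the log2 fold change was -0.08 for *Notch1*, 0.18 for *Notch2* and -0.07 for *Jag2*, and none of these was called. It was the sample whose removal moved *Dll1*, *Dll4*, *Mib1* and *Notch4* most.

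**Figure D5:**
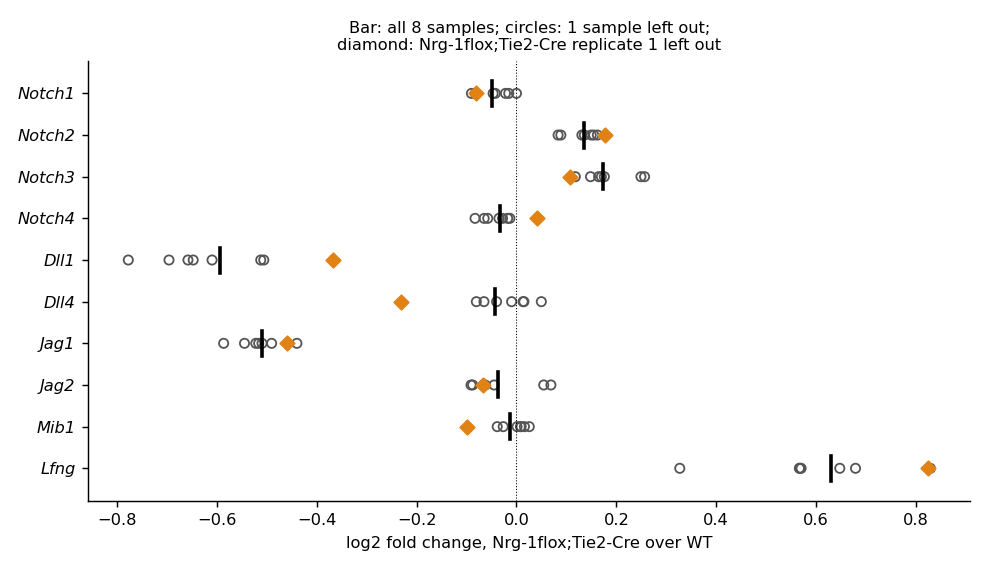
Log2 fold change of Nrg-1flox;Tie2-Cre over WT (horizontal axis) for each gene with all 8 samples (black bar), with 1 sample left out (circles) and with Nrg-1flox;Tie2-Cre replicate 1 left out (orange diamond). *Jag1* ranges from -0.59 to -0.44, *Dll1* from -0.78 to -0.37 and *Dll4* from -0.23 to 0.05.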

How the data were processed

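RNA-seq of polyadenylated RNA was made from E9.5 heart ventricles of 4 WT and 4 Nrg-1flox;Tie2-Cre samples as single reads. Per the labels, the authors trimmed reads with cutadapt and estimated expected counts per gene with RSEM 1.3.1 on GRCm38, and deposited these expected counts with no scaling for depth or length. The name of the deposited table adds the number 91 to the build, which was read as the annotation release. Neither the aligner nor any strand setting was given in the sources used here. Gene symbols were matched for 53274 of 53465 genes.

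Expected counts were rounded to whole numbers. CPM values are TMM-normalized. The genotypes were compared with edgeR 4.0.16 in R 4.3.3 (TMM, filterByExpr by genotype, quasi-likelihood test on 8 samples, Benjamini-Hochberg adjustment over all 14451 genes tested, threshold 0.05). Dividing the log2 fold change by the root of its F statistic gave the SE, and intervals cover 95%. Differences of log2 levels used a prior count of 2 and carry no test. The fit was tested on simulated data. Coordinates, exons and lengths come from GENCODE M21 (GRCm38), and upstream sequences from RefSeq (GRCm38.p6), searched with Python 3.11.15.

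The genes, the 5 pathway lists and the 8 marker lists were chosen with earlier results of these data known. Named are the 10 genes, *Nrg1*, *Rbpj*, *Hey1*, *Hey2*, *Hes1* and *Nrarp* whatever their result, genes called in the pathway, endothelial, arterial and neural or paraxial lists, the most abundant gene of each other marker list, and the 5 genes most alike to *Dll4*, *Notch1* and *Jag1*. Alternatives were RLE and upper-quartile factors, DESeq2 1.42.0, limma-voom (limma 3.58.1), no filter, at least 10 counts in every sample, the table without hemoglobin and mitochondrial genes, a block for replicate numbers, endothelial markers as a covariate, each sample left out, a prior count of 0.5, and a covariate of erythroid markers chosen after seeing the data. No replicate pair matched within counting noise (chi-square per degree of freedom of 3.59 or more), so none was merged.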

Additional observations from a re-analysis of the deposited data

Results flagged for a closer look

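Among 38 groups of 4 values tested, 4 had 1 sample far from the other 3, against about 1.9 by chance if values were independent, which they are not. The distance from the far sample to its neighbour, divided by the whole range of the group, was 0.834 for *Mib1* in mutant replicate 1, the highest of its group. It was 0.959 for *Lfng* in WT replicate 2, also the highest, at 46 counts against 25 to 31 in the other WT samples. For *Dll4* relative to the endothelial markers it was 0.882 in WT replicate 3 and 0.941 in mutant replicate 1, each the highest of its group.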

How the results depend on the processing

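*Jag1* was called in 8 of 10 alternatives that kept all samples, with log2 fold changes from -0.53 to -0.50 in those 8, and in all 8 that left out 1 sample (edgeR adjusted p from 0.00383 to 0.0460). No other member was called in any alternative. Over all genes, the count of calls was between 1157 and 1780 in 7 alternatives with all samples. It was 616 (398 higher) with the replicate block, 9 with the endothelial covariate and 0 with the erythroid covariate. At an unadjusted p under 0.05 these fits had 3147, 1683 and 1269 genes, in that order. With 1 sample left out the count of calls was from 509 to 2523, the highest without mutant replicate 1 and the lowest without WT replicate 1. The count of other pathway genes was 0 with the replicate block (7 at an unadjusted p under 0.05 in edgeR), 0 with the endothelial covariate (4) and 0 with the erythroid covariate (7), and from 0 to 7 with 1 sample left out. The 7, without mutant replicate 1, were *Dtx3*, *Furin*, *Itch*, *Maml3*, *Numbl*, *Psen2* and *Rfng*. DESeq2 and the fit without a filter added *Rfng* to *Psen2* and *Dtx3*. The number of members called was 0 with the endothelial covariate (3 at an unadjusted p under 0.05) and 0 with the erythroid covariate (2). The sign reversed with the endothelial covariate for *Notch1* (0.0245), *Dll4* (0.0615) and *Mib1* (0.0040), and with the erythroid covariate for *Notch4* (0.160), *Dll1* (0.416) and *Jag1* (0.0572), and none of these was called. With 1 sample left out, the signs of *Mib1* (-0.0992 to 0.0256), *Dll4* (-0.232 to 0.0498), *Jag2* (-0.0910 to 0.0689) and *Notch4* (-0.0829 to 0.0401) reversed in some fits, and the cause was not tested. *Nrg1* was -1.17 with the endothelial and -1.41 with the erythroid covariate without passing (edgeR adjusted p = 0.0902 and 0.502). The shift of *Dll4* and *Notch1* against the Jagged ligands was 0.22 in each scaling and from 0.12 to 0.34 with 1 sample left out. The labels name no pairing, same-numbered samples correlated between -0.0911 and 0.0187 in their deviations, and 0 of 8 samples correlated best with its own number, so the replicate block uses only a number. With it, *Jag1* was at -0.52 (edgeR adjusted p = 0.0291). Depth limits *Lfng* and *Dll1* most, at counts from 24 to 144 per sample.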
